A study of Mus musculus musculus x Mus musculus castaneus with 7 samples.

Results

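The genes described here are the writers and erasers of DNA methylation, 10 of the 24393 genes in the deposited expression table. They were chosen by name: Dnmt1, Dnmt3a, Dnmt3b, Dnmt3l, Uhrf1, Uhrf2, Tet1, Tet2, Tet3 and Tdg, each with a row in the table and a value in all 7 libraries. Dnmt3l, Tet1 and Tdg lie on chromosome 10, Dnmt3b on chromosome 2, Tet2 on 3, Tet3 on 6, Dnmt1 on 9, Dnmt3a on 12, Uhrf1 on 17 and Uhrf2 on 19. The series followed female mouse embryonic fibroblasts of a musculus by castaneus cross as they were reprogrammed to induced pluripotent stem cells (iPSCs), and measured RNA by sequencing in 1 library for each of 7 groups. The fibroblasts received a lentiviral cassette of Oct4, Sox2, Klf4 and cMyc under a doxycycline-inducible promoter (tetO-FUW-OSKM), with the activator M2rtTA, and were sorted by which X chromosome carried an active X-GFP reporter. Reprogramming ran with 2 µg/ml doxycycline and 50 µg/ml ascorbic acid in serum medium with LIF. The groups were an intermediate of Day 2, whose label names no sort, intermediates of Days 8, 10, 13 and 15 sorted for the surface glycan SSEA1, which mouse pluripotent cells carry, and iPSCs and embryonic stem cells (ESCs), both sorted for SSEA1 and GFP. For the iPSCs, colonies were picked and grown on with neither doxycycline nor ascorbic acid, and the ESCs were described as F121. Ascorbic acid is a cofactor of the Tet enzymes, and no library of fibroblasts reprogrammed without it was analysed here.

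Methyl groups on the cytosines of CpG sites are placed by the Dnmt3a and Dnmt3b enzymes, which act on unmethylated DNA, with Dnmt3l, a relative without catalytic activity, as their cofactor. Dnmt1 copies the pattern onto the new strand at each replication, guided by Uhrf1, which binds the DNA with only its parental strand methylated, while Uhrf2 is a relative of Uhrf1 that does not replace it in maintenance. Tet1, Tet2 and Tet3 oxidise 5-methylcytosine with iron, alpha-ketoglutarate and oxygen, and the glycosylase Tdg excises the most oxidised products so that base excision repair restores cytosine. In mouse pluripotent cells Dnmt3b, Dnmt3l and Tet1 are known to be abundant.

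The family members share their catalytic core and differ around it, and the coding bases of that core are shown because they separate the enzymes from the cofactor Dnmt3l. The bases come from GENCODE M21 transcripts (GRCm38), 1 transcript per gene, each stretch 42 bases long and lying in 1 coding exon. In the first 3 lines the capitals mark the codons of the proline and cysteine of the methyltransferase active site.
Dnmt1: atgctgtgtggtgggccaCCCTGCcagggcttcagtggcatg
Dnmt3a: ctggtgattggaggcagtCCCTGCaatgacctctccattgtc
Dnmt3b: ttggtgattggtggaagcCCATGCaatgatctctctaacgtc
Dnmt3l: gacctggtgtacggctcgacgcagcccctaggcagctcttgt
The stretches lie at chr9:20911795-20911836 on the minus strand for Dnmt1 (exon 32), chr12:3902405-3902446 on the plus strand for Dnmt3a (exon 18), chr2:153677195-153677236 on the plus strand for Dnmt3b (exon 19) and chr10:78056866-78056907 on the plus strand for Dnmt3l (exon 10). The Dnmt3l line has no capitals: in an end-to-end alignment of the proteins, Dnmt3l had no residue opposite 8 residues of Dnmt3a beginning with that proline, and the gap falls after base 21 of the line. Over the aligned residues Dnmt3a and Dnmt3b were 53.4% identical, Dnmt3a and Dnmt3l 37.1% and Dnmt3b and Dnmt3l 36.3%. In the Tet lines the capitals mark the codons of the histidine and aspartate that hold the iron.
Tet1: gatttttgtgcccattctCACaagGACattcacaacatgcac
Tet2: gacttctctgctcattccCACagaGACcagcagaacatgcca
Tet3: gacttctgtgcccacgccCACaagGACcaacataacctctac
These lie on the minus strand at chr10:62814451-62814492 for Tet1 (exon 11), chr3:133471355-133471396 for Tet2 (exon 10) and chr6:83373209-83373250 for Tet3 (exon 10). All 3 Tet genes carry the same pair of codons there, and over the aligned residues their proteins were between 34.1% (Tet1 and Tet2) and 39.8% (Tet1 and Tet3) identical.

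Values are on the deposited scale, log2 of the normalized count plus 1, and a library held between 15370903 (iPSC) and 57021069 (Day 15) gene reads. There was 1 library per group, so no spread between replicates and no test could be had, and the interval after each fold is the 95% interval of its recovered reads, which covers counting error only. In bulk RNA, fewer cells expressing a gene and less RNA per cell cannot be told apart. The Day 2 library had no read of 10 of 11 pluripotency markers, among them Pou5f1 and Sox2, 2 of the genes of the reprogramming cassette, so its values do not show induction. Among genes with a normalized count of 256 or more in all the other 6 libraries, the share that lacked any read was 1.67% at Day 2 and 2.13% at Day 8, and at most 0.0299% in the other libraries. Both libraries thus stand apart, and results that rest on them are given also without them where another library allows it. Wherever Day 2 is compared, time and the SSEA1 sort cannot be told apart. Between iPSCs and any intermediate, colony picking, growth without doxycycline and ascorbic acid, and the GFP sort differ as well. These cannot be told apart from time either.

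The large differences of the 10 genes lay between the early libraries. Between Day 2 and Day 8, Dnmt1, Dnmt3a, Dnmt3l, Tet1 and Tet2 were at least 2-fold higher and Tet3 was at least 2-fold lower, which is 5 and 1 of 10 genes against 26.3% and 31.8% of all genes compared. Between Day 8 and Day 10, Uhrf1, Dnmt3a, Dnmt3b, Dnmt3l, Tet1 and Tet3 were at least 2-fold higher (6 of 10, against 27.7% of all genes) and none of the 10 was lower (against 18.8%). From Day 10 to Day 13, 0 of the 10 genes was at least 2-fold higher (against 15.7%) and 0 lower (against 9.51%). From Day 13 to Day 15, 0 was higher (against 14.6%) and only Dnmt3b was lower (1 of 10, against 13.1%). Between Day 15 and iPSCs, 0 was higher (against 7.83%) and 0 lower (against 22.1%). ESCs exceeded iPSCs at least 2-fold for 1 gene, Dnmt3b (against 14.5%), and 0 was lower (against 13.7%). Over the whole course, iPSCs stood at least 2-fold above Day 2 for Uhrf1, Dnmt3a, Dnmt3b, Dnmt3l, Tet1 and Tet2 (6 of 10, against 28.7%) and below it for 0 (against 29.8%).

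The median difference over the 10 genes was 1.02 for Day 8 minus Day 2 and 1.17 for Day 10 minus Day 8, beside -0.11 and 0.05 for all genes. It was 0.29, -0.08, 0.15 and 0.12 in the 4 later steps, beside 0.03, 0.02, -0.02 and 0.02 for all genes. For iPSC minus Day 2 it was 2.02, beside 0.02. With the Day 8 library left out, Day 10 was at least 2-fold above Day 2 for 7 of the 10 genes, Dnmt1, Uhrf1, Dnmt3a, Dnmt3b, Dnmt3l, Tet1 and Tet2, and below it for 0, against 27.2% and 25% of all genes. With ESCs in place of iPSCs, 2 genes stood at least 2-fold above Day 15, Dnmt3l and Tet1, and 2 below it, Uhrf2 and Tet3, against 11.3% and 23.8% of all genes. Over the 5 libraries from Day 10 on, which use neither early library, the range of a gene between its lowest and highest value was 0.35 for Dnmt1 and 0.49 for Uhrf1, the narrowest of the 10, and 1.83 for Dnmt3b, the widest. The median range over all genes in those libraries was 1.63.

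**Figure D1:**
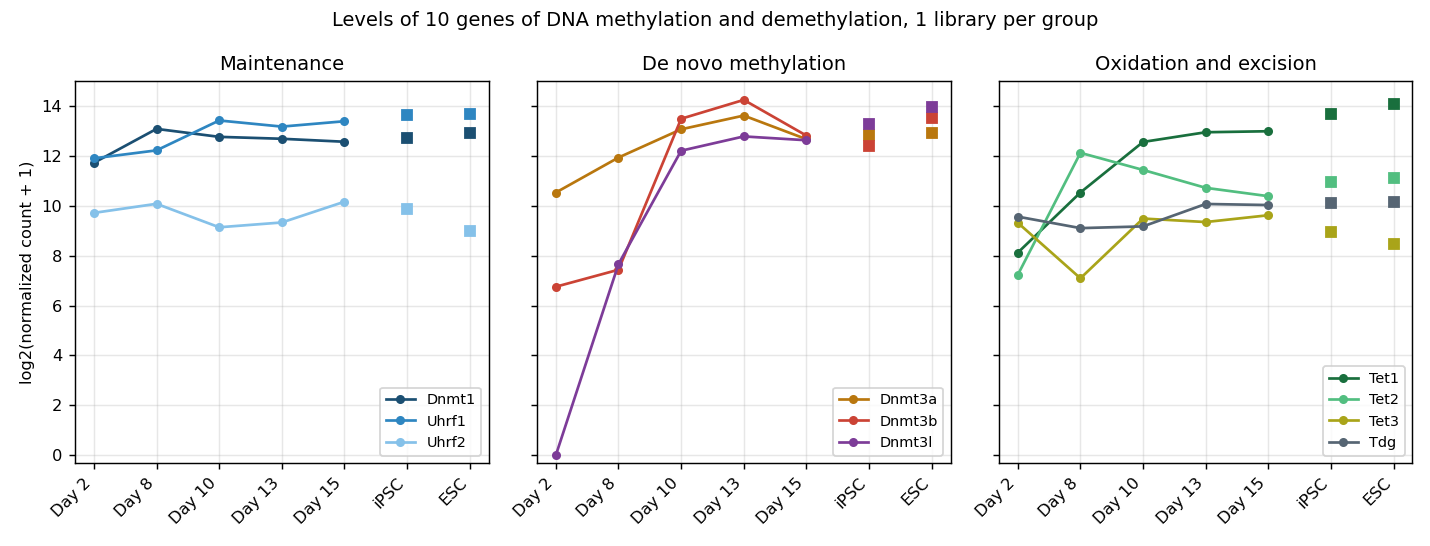
Level of each gene in each library, as log2 of the normalized count plus 1, with maintenance genes at left, de novo genes in the middle and the Tet genes with Tdg at right. Circles joined by lines are the reprogramming intermediates and squares the iPSC and ESC libraries, 1 library per point, and Dnmt3b makes the steepest step between 2 libraries that both held its reads, from Day 8 to Day 10.

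**Figure D2:**
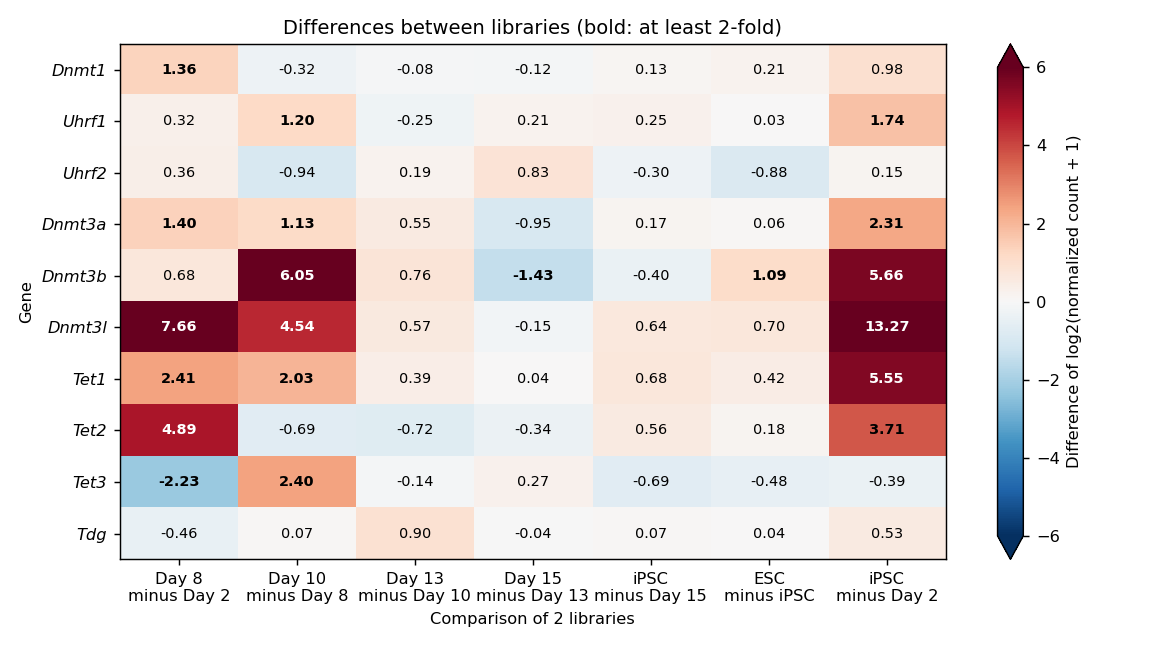
Difference of log2(normalized count + 1) for each gene (rows) in each comparison of 2 libraries (columns), with differences of at least 2-fold in bold and colours saturating at the ends of the scale. Bold cells crowd into the first 2 columns and the last, and the Dnmt3l values against Day 2 rest on 0 reads there.

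Among the de novo genes, Dnmt3b made the largest step between libraries that both held its reads, Dnmt3l had no read at Day 2, and Dnmt3a spanned the narrowest range. The log2 value of Dnmt3b was 6.75 (Day 2), 7.44 (Day 8), 13.49 (Day 10), 14.24 (Day 13), 12.81 (Day 15), 12.41 (iPSC library) and 13.50 (ESC library). It was low in the 2 earliest libraries, highest at Day 13 and intermediate in the rest, and Day 10 and the ESCs lay within counting error of each other. Dnmt3b rose 66.7-fold (58.2 to 76.8) between Day 8 and Day 10, from 211 to 14787 reads, a larger difference than in all but 14.0% of the genes compared. It fell 2.70-fold (2.64 to 2.76) from Day 13 to Day 15. iPSCs stood 50.9-fold (42.3 to 61.9) above Day 2, and ESCs 2.13-fold (2.04 to 2.23) above iPSCs. Mitochondrial transcripts took 20.9% of the ESC reads, against at most 5.61% in the other libraries, and with scaling by the total of all gene reads that difference was 0.91 on the log2 scale, under the 2-fold mark.

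Dnmt3l, the catalytically inactive cofactor, had read numbers of 0 (Day 2), 247 (Day 8), 6084 (Day 10), 7198 (Day 13), 10892 (Day 15), 4202 (iPSC library) and 14809 (ESC library). Its log2 value was 0.00 (Day 2), 7.66 (Day 8), 12.21 (Day 10), 12.78 (Day 13), 12.63 (Day 15), 13.27 (iPSC library) and 13.97 (ESC library). No read was found at Day 2, few at Day 8, and the ESC library was the highest, ahead of the iPSCs. Against the floor of 3 reads at Day 2, Dnmt3l was at least 73.5-fold higher at Day 8, and it rose a further 23.4-fold (20.6 to 26.7) to Day 10. From Day 10 to Day 15 it stayed within a 2-fold span, and ESCs stood 1.63-fold (1.57 to 1.68) above iPSCs. Aire, on the opposite strand, shares 2.24% of the exon bases of Dnmt3l, and the library kit does not mark the strand. Aire had read numbers of 0 (Day 2), 468 (Day 8), 2902 (Day 10), 4059 (Day 13), 2407 (Day 15), 179 (iPSC library) and 2260 (ESC library). It too was at 0 at Day 2 and present from Day 8, and the part of shared reads in the Dnmt3l values was not tested.

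Dnmt3a, the more broadly expressed of the de novo enzymes, had log2 values of 10.53 (Day 2), 11.93 (Day 8), 13.07 (Day 10), 13.62 (Day 13), 12.67 (Day 15), 12.84 (iPSC library) and 12.90 (ESC library). It was lowest at Day 2, highest at Day 13 as Dnmt3b was, and nearly level between iPSCs and ESCs. Dnmt3a rose 2.65-fold (2.5 to 2.80) from Day 2 to Day 8 and 2.19-fold (2.12 to 2.27) from Day 8 to Day 10. The gap between iPSCs and Day 2 was 4.97-fold (4.68 to 5.28). The counts are per gene and do not separate the long and short Dnmt3a transcripts. The antisense gene Dnmt3aos shares 0.799% of its exon bases.

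Between genes, levels were compared per kilobase of exon. Dnmt1 made up most of the summed level of Dnmt1, Dnmt3a, Dnmt3b and Dnmt3l at first, with 80.7% (Day 2), 77.8% (Day 8), 17.8% (Day 10), 11.4% (Day 13), 17.4% (Day 15), 15.8% (iPSC library) and 11.4% (ESC library). Dnmt3b made up 3.69% (Day 2), 2.23% (Day 8), 42.5% (Day 10), 48.7% (Day 13), 29.7% (Day 15), 18.7% (iPSC library) and 24.9% (ESC library). Dnmt3l made up 0% (Day 2), 4.46% (Day 8), 29.9% (Day 10), 30.2% (Day 13), 44.7% (Day 15), 57.7% (iPSC library) and 58.6% (ESC library). The leading gene of the family thus was Dnmt1 in the 2 earliest libraries, Dnmt3b at Days 10 and 13, and Dnmt3l at Day 15 and in iPSCs and ESCs. Dnmt3a made up between 5.04% (ESCs) and 15.6% (Day 2) and led in none. With the longest annotated transcript as the length, the order of the 4 genes was the same in 6 of 7 libraries, and at Day 13 Dnmt3a (12.0%) passed Dnmt1 (10.4%).

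Between the 2 de novo enzymes alone, the order turned over. Per kilobase of exon, Dnmt3a exceeded Dnmt3b 4.24-fold (3.51 to 5.16) at Day 2 and 6.97-fold (6.07 to 8.03) at Day 8. Dnmt3b then exceeded Dnmt3a 4.37-fold (4.26 to 4.48) at Day 10, 5.04-fold (4.93 to 5.15) at Day 13 and 3.60-fold (3.51 to 3.69) at Day 15. In ESCs the ratio was 4.94-fold (4.79 to 5.09), and in iPSCs, at 2.42-fold (2.29 to 2.55), it was the lowest since Day 8. In iPSCs that order rests on the length: without it Dnmt3b held 42.6% of the counts of the pair, with it 70.8%. Dnmt3l, the cofactor, reached 11.6-fold (11.3 to 12.0) the level of Dnmt3a in ESCs. Trdmt1, a family member that methylates tRNA, stayed between 95 and 462 reads, and Dnmt3c, a rodent de novo enzyme of the male germ line that resembles Dnmt3b, had 0 reads up to Day 10 and at most 36 later.

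**Figure D3:**
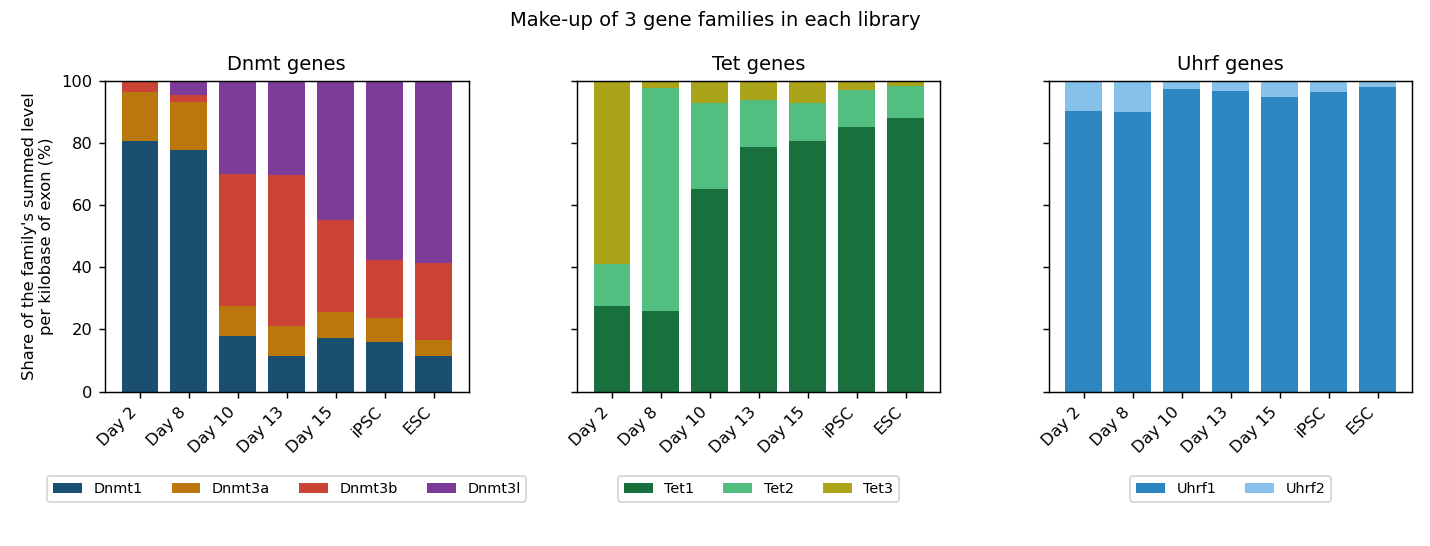
Make-up of the Dnmt, Tet and Uhrf families in each library, as each gene's share of the family's summed level per kilobase of exon (%). The bars pass from Dnmt1 to Dnmt3b and Dnmt3l, and from Tet3 at Day 2 to Tet1 from Day 10 on. Tet2 leads at Day 8 only, and Uhrf1 holds between 89.9% and 98.1% of its pair.

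Over the 7 libraries, Dnmt1, Uhrf1 and Uhrf2 spanned narrower ranges than the de novo genes. These were 1.36, 1.77 and 1.18, against 3.09 for Dnmt3a, the narrowest of the de novo genes. From Day 10 on this held for Dnmt1 and Uhrf1, while the range of Uhrf2 (1.18) exceeded that of Dnmt3a (0.95). Dnmt1, the maintenance methyltransferase, had log2 values of 11.72 (Day 2), 13.08 (Day 8), 12.76 (Day 10), 12.69 (Day 13), 12.57 (Day 15), 12.70 (iPSC library) and 12.91 (ESC library). Day 2 was the lowest library and Day 8 the highest, and the other 5 lay close together. Dnmt1 rose 2.56-fold (2.47 to 2.66) from Day 2 to Day 8, and iPSCs stood 1.97-fold (1.87 to 2.07) above Day 2, just under the 2-fold mark. Under all 3 other scalings of the libraries that difference passed the mark, at 1.31, 1.22 and 1.24 on the log2 scale against 0.98 as deposited.

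Uhrf1, which brings Dnmt1 to newly replicated DNA, had log2 values of 11.90 (Day 2), 12.22 (Day 8), 13.42 (Day 10), 13.17 (Day 13), 13.39 (Day 15), 13.64 (iPSC library) and 13.67 (ESC library). It was low at Days 2 and 8 and higher in every later library, with ESCs and iPSCs within counting error of each other. Uhrf1 rose 2.29-fold (2.23 to 2.37) between Day 8 and Day 10, and iPSCs stood 3.33-fold (3.20 to 3.47) above Day 2. The larger step of Dnmt1 lay before Day 8 and that of Uhrf1 after it, an order that rests on the Day 8 library alone. With Day 8 left out, Day 10 minus Day 2 was 1.04 for Dnmt1 and 1.52 for Uhrf1. Per kilobase of exon, Uhrf1 was at 1.96-fold (1.88 to 2.05) the level of Dnmt1 at Day 2, 0.954-fold (0.924 to 0.985) at Day 8 and 2.73-fold (2.66 to 2.80) at Day 10. Uhrf2, the relative, had log2 values of 9.71 (Day 2), 10.08 (Day 8), 9.14 (Day 10), 9.33 (Day 13), 10.16 (Day 15), 9.87 (iPSC library) and 8.98 (ESC library). It was highest at Days 15 and 8 and lowest at Day 10 and in ESCs, and no step reached 2-fold. ESCs stood 1.85-fold (1.61 to 2.12) below iPSCs for Uhrf2, or -1.06 on the log2 scale, past the mark, when scaled by the total of all gene reads. Per kilobase, Uhrf1 exceeded Uhrf2 9.19-fold (8.56 to 9.89) at Day 2 and 52.0-fold (47.4 to 57.2) in ESCs.

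Because maintenance follows replication, both genes were set beside 30 genes of DNA replication, such as the helicase subunits Mcm2 to Mcm7. In iPSC minus Day 2, 20 of 30 replication genes were at least 2-fold higher and 0 lower, against 28.7% and 29.8% of all genes, with a median difference of 1.59. Pola1, the catalytic subunit of polymerase alpha, was 6.87-fold (6.36 to 7.44) higher and Mcm3 6.78-fold (6.56 to 7.02). Uhrf1 stood 0.15 above that median and Dnmt1 -0.61 from it, that is, below. In Day 8 minus Day 2 the order was the other way, with Dnmt1 at 0.73 and Uhrf1 at -0.31 from a replication median of 0.63. In Day 10 minus Day 8, Uhrf1 exceeded 28 of the 30 replication genes and Dnmt1 2.

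The 3 Tet oxidases took different courses. Tet1, the highest of the 3 in iPSCs and ESCs, had log2 values of 8.12 (Day 2), 10.53 (Day 8), 12.56 (Day 10), 12.95 (Day 13), 12.99 (Day 15), 13.67 (iPSC library) and 14.09 (ESC library). In that order each library was higher than the one before, with the ESCs highest. Tet1 rose 5.34-fold (4.73 to 6.05) to Day 8 and 4.08-fold (3.87 to 4.29) to Day 10, and iPSCs stood 46.9-fold (41.8 to 52.8) above Day 2. ESCs exceeded iPSCs 1.34-fold (1.30 to 1.38).

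Tet2, the Tet gene prominent in blood cells, had log2 values of 7.23 (Day 2), 12.12 (Day 8), 11.44 (Day 10), 10.72 (Day 13), 10.38 (Day 15), 10.94 (iPSC library) and 11.13 (ESC library). Day 8 was the highest library, Day 2 by far the lowest, and the values declined from Day 8 to Day 15. Tet2 was 29.9-fold (25.6 to 35.2) higher at Day 8 than at Day 2. At Day 10, the next library, it was still 18.6-fold (15.9 to 21.9) above Day 2. In normalized counts, the summed level of 12 macrophage markers was 619.9 (Day 2), 44908 (Day 8), 2374 (Day 10), 39576 (Day 13), 3551 (Day 15), 5075 (iPSC library) and 3652 (ESC library). All 12 had reads at Day 8, while Spi1 and Mpeg1 had none at Day 10 and 8 of the 12 had none at Day 2, among them Ptprc, Spi1 and Adgre1. Day 13 was nearly as high in this sum as Day 8. Lyz2 alone held 24224 of it at Day 13 and 18221 at Day 8. Lyz2, Adgre1, C1qa and Cd68 were higher at Day 13 than at Day 8, and the other macrophage markers were lower. Ptprc went from 2370 to 204 and Spi1 from 1725 to 520, while Adgre1 went from 422 to 764. Tet2 was 10.72 at Day 13 and 11.44 at Day 10. The part of these markers in the Day 8 value of Tet2 was not tested.

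Tet3, known for its role in the oocyte and zygote, had log2 values of 9.32 (Day 2), 7.09 (Day 8), 9.49 (Day 10), 9.35 (Day 13), 9.62 (Day 15), 8.93 (iPSC library) and 8.45 (ESC library). Day 8 was the low library, ESCs the next, and in the ranking Day 13 lay within counting error of both its neighbours, Day 10 above and Day 2 below. The other neighbouring pairs differed beyond counting error. Tet3 was 4.71-fold (3.97 to 5.61) lower at Day 8 than at Day 2 and 5.29-fold (4.48 to 6.28) higher at Day 10 than at Day 8. Both calls use the Day 8 library: Day 10 and Day 2 differed by 0.17 on the log2 scale, within the 2-fold mark.

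The leading Tet gene changed between libraries. Of the family's summed level per kilobase of exon, Tet3 held 58.8% (Day 2), 2.20% (Day 8), 7.19% (Day 10), 6.0% (Day 13), 7.23% (Day 15), 2.96% (iPSC library) and 1.63% (ESC library). Tet2 held 13.6% (Day 2), 71.8% (Day 8), 27.5% (Day 10), 15.4% (Day 13), 12.1% (Day 15), 11.8% (iPSC library) and 10.4% (ESC library). Tet1 held 27.6% (Day 2), 26.0% (Day 8), 65.3% (Day 10), 78.6% (Day 13), 80.6% (Day 15), 85.2% (iPSC library) and 88.0% (ESC library). Tet3 led at Day 2, Tet2 at Day 8 and Tet1 from Day 10 on. The lead of Tet3 rests on the Day 2 library alone and that of Tet2 on the Day 8 library alone. With the longest annotated transcript as the length, the order of the 3 genes was the same in all 7 libraries. At Day 8, Tet2 exceeded Tet1 2.76-fold (2.62 to 2.91), and in ESCs Tet1 exceeded Tet2 8.50-fold (8.12 to 8.91) and Tet3 53.9-fold (48.3 to 60.4). The family's summed level rose from 65.0 normalized counts per kilobase at Day 2 to 368 at Day 8, 986 in iPSCs and 1281 in ESCs.

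Tdg, which removes the oxidised bases that the Tet enzymes make, had log2 values of 9.56 (Day 2), 9.10 (Day 8), 9.17 (Day 10), 10.07 (Day 13), 10.03 (Day 15), 10.10 (iPSC library) and 10.14 (ESC library). Days 8 and 10 were the lowest, and the 4 libraries from Day 13 on lay within counting error of their neighbours. Its range of 1.03, between Day 8 and ESCs, was the narrowest of the 10 over all 7 libraries and just past 2-fold. Those 2 libraries were not compared directly, and none of the comparisons made reached 2-fold. The pseudogenes Tdg-ps and Gm9855 matched the Tdg transcript over 98.7% and 99.2% of aligned bases, so reads can be shared among the 3. Gm9855 had between 324 and 1018 reads, against 467 to 1798 of Tdg. With their reads added, Day 13 minus Day 10 was 0.78 against 0.90 for Tdg alone. The log2 value of that sum was 10.24 (Day 2), 10.16 (Day 8) and 10.07 (Day 10). The gap between Day 2 and Day 8 was thus smaller than for Tdg alone, and Day 10 replaced Day 8 as the lowest library. The highest value of the sum was 10.94 (iPSC library), so its range stayed under 2-fold. The Day 8 low and the range just past 2-fold therefore hold for the Tdg counts alone. Glt8d2, on the opposite strand, shares 6.83% of the exon bases of Tdg and had between 12 and 310 reads.

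Markers of other cell types moved between the same libraries. In normalized counts, the summed level of 11 pluripotency markers was 2.74 (Day 2), 36613 (Day 8), 110707 (Day 10), 149104 (Day 13), 178968 (Day 15), 371139 (iPSC library) and 330606 (ESC library). That of 12 fibroblast markers was 843979 (Day 2), 84492 (Day 8), 11348 (Day 10), 28591 (Day 13), 69856 (Day 15), 1598 (iPSC library) and 3150.3 (ESC library). That of 7 epithelial markers was 114 (Day 2), 141903 (Day 8), 131621 (Day 10), 96409.6 (Day 13), 77135 (Day 15), 13029 (iPSC library) and 28332 (ESC library). Single genes weighed heavily in these sums. Krt8 held 88579 of the epithelial sum at Day 8 and 56284 at Day 10, while every other epithelial marker rose between these libraries. Dppa5a held 207174 of the pluripotency sum in iPSCs. From Day 10 to Day 13 the pluripotency sum rose, but the median difference over its 11 markers was -0.13. Pluripotency and epithelial markers were thus near 0 or low at Day 2 and present from Day 8, before the rise of Dnmt3b, and the fibroblast sum was highest at Day 2, where most of it came from the collagen genes Col1a1 and Col1a2. Its members did not all move together. In Day 8 minus Day 2, 9 of 12 fibroblast markers were at least 2-fold lower, against 31.8% of all genes, with Pdgfra and Twist1 at 0 reads at Day 8, and 2 were higher, against 26.3%. These were Dcn, from 316 reads at Day 2 to 10719 at Day 8, and Lum, from 431 to 1192. The fibroblast sum was higher again at Days 13 and 15 than at Day 10, with 7 of 10 markers higher and 1 lower in Day 13 minus Day 10 (15.7% and 9.51% of all genes) and 8 of 11 higher and 1 lower in Day 15 minus Day 13 (14.6% and 13.1%). The 1 lower marker was Fbn1 in Day 13 minus Day 10, with normalized counts of 381 at Day 10 and 175 at Day 13. In Day 15 minus Day 13 it was Dcn. Dcn and Prrx1 fell at both steps, with normalized counts of 5384 and 293 at Day 10 and 1249 and 145 at Day 15. At Day 15, Dnmt3b, Dnmt3a and Dnmt3l were below their Day 13 values. The part of these shifts in the results was not tested.

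**Figure D4:**
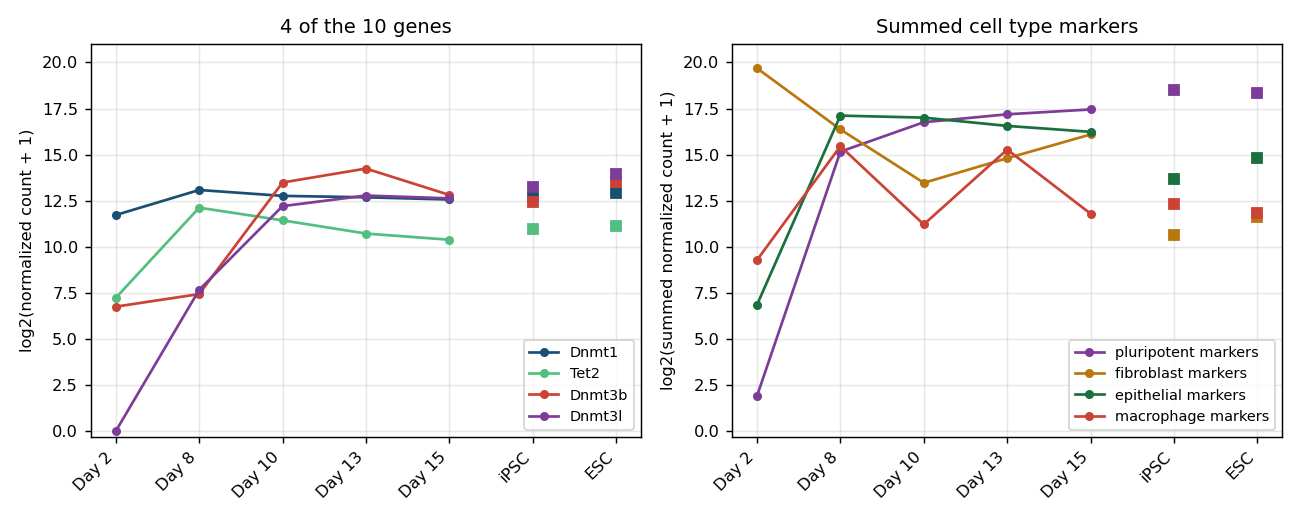
Log2 levels of Dnmt1, Tet2, Dnmt3b and Dnmt3l (left) beside the log2 of the summed normalized count plus 1 of 4 marker lists (right), 1 library per point, with squares for iPSCs and ESCs. The macrophage sum peaks at Days 8 and 13, with Lyz2 its largest part at both, and most of its other members are lower at Day 13. Tet2 peaks at Day 8 only and Dnmt3b at Day 13.

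Related pathways were compared between iPSCs and Day 2 by the same 2-fold mark, where 28.7% of all genes were higher and 29.8% lower. Of the partners of demethylation and base excision repair, 11 of 21 compared were higher and 5 lower, with a median difference of 2.23. Mbd4, a glycosylase that removes thymine and uracil opposite guanine, was 34.1-fold (24.7 to 48.3) higher. Gadd45a, which has been linked to active demethylation, was 15.2-fold (13.1 to 17.7) higher, whereas its relatives Gadd45g and Gadd45b were 205-fold (131 to 341) and 4.07-fold (3.57 to 4.65) lower. Apobec2, of the cytidine deaminase family, was at least 205-fold higher and its relative Apobec1 5.77-fold (2.95 to 12.9) lower. The glycosylase Neil2 was at least 42.7-fold higher. The sizes given for Mbd4, Gadd45a, Gadd45g and Neil2 rest on which pluripotent library is taken. Mbd4 had a normalized count of 427 in ESCs, 1249 in iPSCs and 36.6 at Day 2, and Gadd45a had 1389, 2875 and 189. Gadd45g had a normalized count of 2129 in ESCs, 44.5 in iPSCs and 9138 at Day 2, and Neil2 had 1 read in ESCs, 50 in iPSCs and 0 at Day 2.

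Genes that target or stabilise the methylation enzymes were higher in 19 of 30 and lower in 1, with a median of 1.36. Dppa3 (Stella), which keeps Uhrf1 from chromatin, was at least 892-fold higher, and Prdm14, which represses Dnmt3b and Dnmt3l in mouse ESCs, at least 641-fold. Zfp57, which with Trim28 guards methylation at imprints, was 20.4-fold (18.8 to 22.1) higher. The remodeller Hells and its partner Cdca7, which open chromatin for methylation, were 8.85-fold (8.41 to 9.31) and 6.25-fold (5.94 to 6.58) higher. The 1 gene that was lower, the H3K9 methyltransferase Suv39h1, was 2.36-fold (2.08 to 2.68) lower.

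The methyl-CpG readers went the other way, with 0 of 11 higher, 4 lower and a median of -0.64. Zbtb4 and Zbtb33 (Kaiso), zinc finger proteins that bind methylated DNA, had 460 and 132 reads at Day 2 and 0 in iPSCs, at least 59.8-fold and at least 17.2-fold lower against the floor of 3 reads in iPSCs. Their relative Zbtb38 was 16.6-fold (13.6 to 20.5) lower, and Mbd2, of the methyl-CpG-binding domain family, 15.4-fold (8.04 to 34.0). In the cycle of S-adenosylmethionine, the methyl donor, 2 of 11 genes were higher and 1 lower (median 0.52), with the folate enzyme Shmt1 5.12-fold (4.86 to 5.40) and Mtrr 2.24-fold (2.08 to 2.42) higher, the second a methionine synthase reductase, and Ahcyl1 2.65-fold (2.39 to 2.94) lower. For the supply of alpha-ketoglutarate and ascorbate to the Tet enzymes, 3 of 16 were higher and 0 lower (median 0.07). Among them the ascorbate transporter Slc23a1 was at least 214-fold higher and the isocitrate dehydrogenase subunit Idh3g 2.79-fold (2.69 to 2.89).

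**Figure D5:**
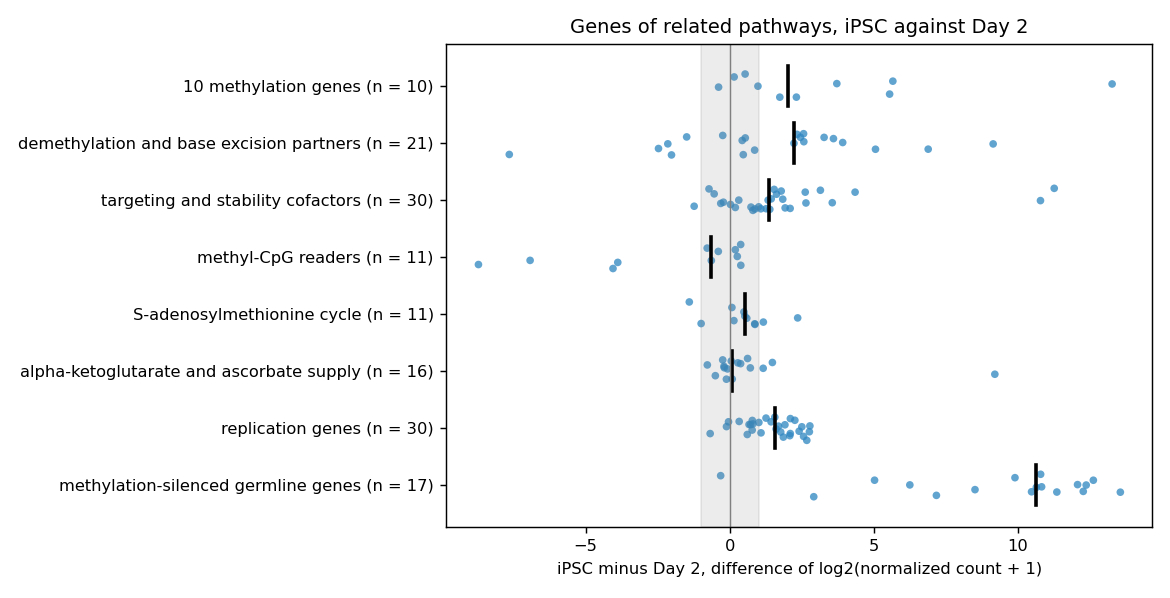
Difference of log2(normalized count + 1), iPSC minus Day 2, for every compared gene of each list (dots, spread vertically for legibility), with the list median as a black bar and differences under 2-fold shaded. The germline and replication lists lie almost wholly to the right and the 4 readers that moved to the left.

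Among the 10 genes themselves, the log2 values of Dnmt1 and Tet2 (Pearson's r 0.987) and of Dnmt3l and Tet1 (0.985) ran most alike over the 7 libraries, and those of Dnmt1 and Tet3 (-0.547) most unlike. The points are 7 single libraries of 1 course of reprogramming, so these are descriptions. Dnmt1 and Tet2 were both lowest at Day 2 and highest at Day 8, and Dnmt3l and Tet1 were both lowest at Day 2. No r was computed without these early libraries, so how far the likeness rests on them was not tested. Over the whole table, the genes with the profile most like each member's were ranked among 10402 candidates, or 11028 for Dnmt3l, so the values are the highest of many. For Dnmt3l they were Tdgf1-ps1 (0.999), Dppa5a (0.998) and Tex19.1 (0.997), of which Dppa5a and Tex19.1 mark pluripotent and germ cells. For Tet1 they were Zfp985 (0.998), Gm8935 (0.998) and Zfp534 (0.996). For Dnmt3b they were Rpgr (0.990), Zfp292 (0.987) and Rexo1 (0.986), and for Dnmt3a Gstp2 (0.980), Cry1 (0.978) and Usp28 (0.978). For Uhrf1 they were Gm2381 (0.996), Gm13230 (0.993) and Usp37 (0.992), and for Uhrf2 Ilkap (0.984), Ogfrl1 (0.965) and Slc26a6 (0.960). For Dnmt1 they were Pigo (0.996), AC157515.1 (0.989) and Ccdc28a (0.988), and for Tet2 Ankrd10 (0.996), Pigo (0.996) and Espl1 (0.994), which share the gene Pigo. For Tet3 they were Anpep (0.992), Cblb (0.980) and Vhl (0.976), and for Tdg Nme4 (0.978), Gm26623 (0.972) and Cdk4 (0.969).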

How the data were processed

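RNA of 7 libraries, 1 per group, was sequenced; per the labels' protocols 500 pg of RNA entered cDNA synthesis, and the Nextera XT kit that followed does not mark strand. The submitters' processing notes name FastQC, STAR 2.5.3a and featureCounts and the build mm10 (GRCm38.p5). The values deposited by the authors are log2 of a size-factor-normalized count plus 1, and how the size factors were made is not stated in the labels used here. On the linear scale 100% of the values in each library were whole read numbers times a constant, within 0.01 reads, and these reads per gene were used.

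For each comparison 1 library's log2 value was subtracted from the other's. A gene entered if either library reached 6 (64 normalized counts), and a difference of 1 or more (2-fold) in size was called. Folds are ratios of normalized counts with 95% Clopper-Pearson intervals of the reads. Against 0 reads, a floor of 3 reads in that library was used. Folds given as at least a value take the other library's count as it stands, so they are not lower limits of the 95% interval. For Dnmt3l in Day 8 minus Day 2 that limit was 59.3, against 73.5 from the floor. The reads carried no molecular identifiers, so intervals and floors cover counting error only. With 1 library per group no test was run and no p-value is given. Levels between genes were divided by the exon length of the gene in GENCODE M21, to which 23485 of the 24393 symbols were matched.

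The 10 genes, the pathway lists and the marker lists were chosen with earlier results of these data known. The pathway lists were partners of demethylation and base excision repair, targeting and stability cofactors, methyl-CpG readers, the S-adenosylmethionine cycle, alpha-ketoglutarate and ascorbate supply, other methyltransferase genes, replication genes and methylation-silenced germline genes. The readers' list includes Thap11 and Zfp809, which are not established readers. Named were all 10 genes, the 3 genes with the highest Pearson's r to each, up to 4 genes per list with the largest 2-fold or larger differences between iPSCs and Day 2, and list genes that act directly on a member. Of these, 1 gene is not reported here. Alternatives were 3 other scalings, other filters, another pseudocount, other lengths and the replacement of a library. The calculations were tested on simulated data and run with Python 3.11.15, pandas 2.3.3, SciPy 1.17.1 and Biopython 1.88.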

Additional observations from a re-analysis of the deposited data

How the results depend on the processing

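Counts of genes at least 2-fold higher or lower stayed within 1.5 times, in every comparison, with a pseudocount of 0.5, a filter at 8 or no filter, the interval required to lie wholly past 2-fold, upper quartile scaling, and scaling by the total without mitochondrial and ribosomal RNA. With scaling by the total of all gene reads, 0 genes were higher and 1, Uhrf2, was lower in ESCs than in iPSCs. With Day 10 in place of Day 8, 0 genes were lower than at Day 2. With ESCs in place of iPSCs, 2 genes were higher and 2 lower than at Day 15. Replacing Day 8 by Day 2 under Day 10 was chosen after seeing the data, as was adding the reads of the Tdg pseudogenes.

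Scaling moved the median of all genes by 0.46 (all reads) and 0.39 (without mitochondrial and ribosomal RNA) for Day 8 minus Day 2. For iPSC minus Day 2 the shifts were 0.36, 0.25 and 0.29 (upper quartile), for iPSC minus Day 15 they were -0.13, -0.18 and 0.19, and for ESC minus iPSC -0.19 (all reads). Under them Dnmt3b passed the 2-fold mark between Day 2 and Day 8, at 1.10 and 1.03 against 0.68 as deposited. Differences of at most 0.13 changed sign for Dnmt1 and Tdg (iPSC minus Day 15) and for Uhrf1, Dnmt3a and Tdg (ESC minus iPSC).

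Length set the family shares. Dnmt3b's share of the Dnmt3a and Dnmt3b sum was 14.0% at Day 2 and 62.5% in iPSCs by the longest transcript, and 6.75% and 42.6% without length. Uhrf1's share of its pair was 81.8% and 93.1% by the longest transcript, and 82.0% and 93.2% without length. Tet1's share of the Tet family was 20.5% at Day 2 and 77.7% in iPSCs by the longest transcript, and 84.1% in iPSCs without length. Measured from the median of all genes in place of the replication genes, iPSC minus Day 2 was 0.96 for Dnmt1 and 1.72 for Uhrf1. No paired analysis was possible because each group has 1 library. Depth limits iPSCs most, where the floor of 3 reads is worth 7.03 normalized counts.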

Other observations

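Germline genes silenced by promoter methylation in somatic cells were largely without reads in the 2 earliest libraries. Of 18 such genes, 2 passed the filter in Day 8 minus Day 2, and of the 14 that passed in Day 10 minus Day 8, 14 were at least 2-fold higher, against 27.7% of all genes, and 12 had 0 reads at Day 8. The filter passes a gene through its higher library, so genes that rise from 0 had to differ. Dazl, an RNA-binding protein of germ cells, went from 0 reads at Day 8 to 1038 at Day 10, at least 329-fold higher, and Hormad1, a meiotic chromosome protein, from 0 to 1557, at least 494-fold. Tex19.1, a methylation-dependent gene of germ and pluripotent cells, already had 388 reads at Day 8. In iPSC minus Day 2, 16 of 17 were higher and 0 lower, against 28.7% and 29.8% of all genes, with a median difference of 10.64, or 9.18 with libraries at 0 reads set to the floor. Dazl was at least 2286-fold, Hormad1 at least 1793-fold and Tex19.1 at least 4376-fold higher. ESCs were lower than iPSCs for 7 of 18 and higher for 0, against 13.7% and 14.5% of all genes, with a median of -0.64. Tuba3a and Tuba3b are near-identical copies, so their values are uncertain.

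Of 7 germ cell and early embryo markers, 2 had reads at Day 2 and 7 in ESCs. Their summed level was 120.7 normalized counts at Day 2, 8315 in iPSCs and 3514 in ESCs. In iPSCs, Dazl held 6269 of that sum, Prdm1 1242 and Ddx4 656. The others were low there, with 55 reads for Nanos3, 5 for Zfp352, 3 for Zscan4d and 0 for Usp17la.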
